A study of Homo sapiens with 4 samples.

Results

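RNA sequencing compared BEAS-2B cells given the mutant PDZ peptide before LPS (mut PDZ+LPS) with BEAS-2B cells given the wild-type PDZ peptide before LPS (WT PDZ+LPS), which are 2 of the 4 libraries of the series. BEAS-2B is an established human bronchial epithelial line, labelled wild type in genotype in all 4 libraries. In both libraries the cells received peptide for 24 hr and then LPS for 2 hr, while the other libraries were untreated cells (Control) and cells given LPS with no peptide (LPS). The comparison asks what the change of a glycine pair to alanines in the peptide does to the LPS response of these cells. The doses of LPS and peptide for these cells, and whether the peptide carried polyethylene glycol here, are not given in the sources used here. Each condition was 1 library, so the differences have no replicate error behind them and no test was run. Of 24424 listed genes, 17999 had a count in either library and 11620 had at least 64 normalized counts in either, which is the set described here. A normalized count is the read count divided by the size factor of its library. All ratios are log2 of mut PDZ+LPS over WT PDZ+LPS after 1 normalized count was added to each.

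LPS is a component of the outer membrane of gram-negative bacteria. Toll-like receptor 4 recognizes it and passes the signal through MyD88, IRAK and TRAF proteins to the IKK complex, which frees NF-kB subunits to switch on cytokine, chemokine and adhesion genes. ZO-1, encoded by TJP1, is a scaffold of epithelial tight junctions, and its PDZ domains hold the tails of partner proteins in a groove next to a glycine-rich loop. The peptide joins a Tat tag of 10 residues, which carries it into cells, to 22 residues from the first PDZ domain of ZO-1, and peptide residues 25 and 26 are the glycines replaced in the mutant. The part of TJP1 that encodes such a stretch is shown because the exchanged residues are the only stated difference between the peptides. It was placed by taking the first of 6 glycine pairs in the TJP1 reading frame as the exchanged pair, which puts the stretch at ZO-1 residues 26 to 47 and the pair at residues 40 and 41. The 66 coding bases lie in exons 2 and 3 on the minus strand of chromosome 15, within chr15:29773301-29800654 of GRCh38 (GENCODE 29 transcript), and the capitals mark the 2 glycine codons.
TJP1 stretch: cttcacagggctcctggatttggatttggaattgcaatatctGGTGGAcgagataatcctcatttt

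TJP1 itself had 3844 normalized counts in Control, 4320 with LPS, 4364 with WT PDZ+LPS and 3185 with mut PDZ+LPS. It was lowest in mut PDZ+LPS, with a log2 ratio of -0.45 (95% counting interval -0.52 to -0.38), and the value was 0.03 after the length and GC correction described below.

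The libraries held 23446600 counts with WT PDZ+LPS against 19682929 with mut PDZ+LPS, with size factors of 0.990 and 0.851. Of 7 epithelial markers, 6 reached 64 normalized counts in either library. All 7 summed to 68100 with WT PDZ+LPS against 94300 with mut PDZ+LPS, of which KRT7 held 38725 and 51663. The keratins KRT5, KRT7, KRT8, KRT18 and KRT19 had log2 ratios from 0.30 to 0.94, while the cadherin CDH1 had -0.78 (95% counting interval -0.98 to -0.58) and EPCAM, at 49.5 and 43.5, did not pass. After the correction described below KRT7 was -0.07, KRT8 0.44 and CDH1 -0.52. The 3 mesenchymal markers passed too, VIM with a ratio of 0.22, CDH2 of -0.07 and ZEB1 of -0.53, which became 0.02, 0.15 and -0.16. Leukocyte markers summed to 1.01 and 10.6 normalized counts, and 4 of 6, among them PTPRC and CD3E, were at 0 in both libraries. The endothelial markers summed to 8.08 and 5.87, the markers of other lung cells to 13.1 and 15.3, and the fibroblast markers to 123 and 84.6, nearly all of it PDGFRB. In bulk RNA, fewer cells of a type and less RNA per cell cannot be told apart.

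Short, GC-rich transcripts were higher and long, AT-rich transcripts were lower in mut PDZ+LPS than in WT PDZ+LPS. Across the 11061 genes with a protein-coding transcript in the reference, Spearman's rho of the log2 ratio was -0.641 with the length of the longest transcript and 0.444 with its GC content. These genes come from the same pair of libraries and are not independent replicates. The median log2 ratio went from 0.41 in the shortest decile of transcripts (median length 1147 nt) to -0.53 in the longest (median length 9569.5 nt). From the most AT-rich to the most GC-rich decile it went from -0.24 to 0.34. The trend came with the mut PDZ+LPS library, since rho with length was 0.0858 for WT PDZ+LPS over LPS and -0.633 for mut PDZ+LPS over LPS. Its origin was not tested. A corrected log2 ratio, from which a smooth trend over length and then GC content had been removed, is therefore given second where a pair of ratios is printed. Sums over genes and genes with no protein-coding transcript have no corrected value. Over the genes it reduced rho to 0.106 with length and 0.0028 with GC content, and the SD of the log2 ratio from 0.432 to 0.323.

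**Figure D1:**
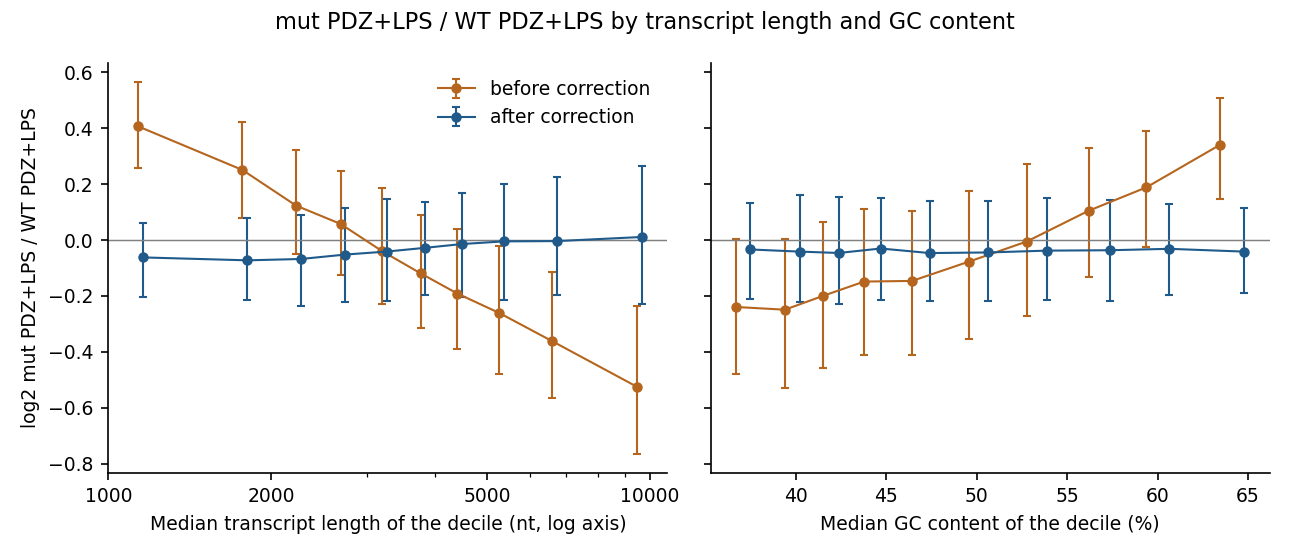
Median log2 ratio of mut PDZ+LPS over WT PDZ+LPS (y axis) in deciles of 11061 genes by transcript length (left, nt, log axis) and GC content (right, percent), with bars for the quartiles and the series drawn slightly apart. Before correction (brown) the medians run from 0.41 to -0.53 with length, and after correction (blue) they lie between -0.07 and 0.01.

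Before correction, 247 of 11620 genes (2.13%) differed at least 2-fold. Of these, 70 genes (0.602%) were at least 2-fold higher and 177 genes (1.52%) at least 2-fold lower in mut PDZ+LPS. The longest decile held 97 of the lower genes. After correction, 83 of 11061 genes (0.75%) did, 38 higher (0.344%) and 45 lower (0.407%). On both scales 58 genes (0.524%) did, of which 20 genes (0.181%) were higher and 38 (0.344%) lower, and these are called higher or lower here. Such a call is a size of difference between these libraries and not the outcome of a test. The genes nearest the 2-fold line before correction were ZFPM1 at 1.0026 and PPAN-P2RY11 at 0.995 on the higher side, and CEP350 at -1.005 and MARCH8 at -0.9996 on the lower side. After correction they were NDNL2 at 1.0046 and ABCC9 at 0.9858, and LMBRD2 at -1.0199 and DIXDC1 at -0.9944. The median over all genes was -0.03 before and -0.04 after correction.

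The genes highest in LPS over Control mostly had higher counts with the mutant than with the wild-type peptide. Genes were classed by LPS over Control, libraries that the mut PDZ+LPS over WT PDZ+LPS ratio does not use. Of 58 genes at least 8-fold higher in LPS than in Control, 46 (79.3%) had a log2 ratio above 0 before correction and 44 (75.9%) after it, with medians of 0.42 and 0.21. In the class of 4-fold to 8-fold the medians were 0.21 and 0.12, and in that of 2-fold to 4-fold they were 0.12 and 0.08. Among genes that differed less than 2-fold between LPS and Control, 46.5% of 11094 were above 0 before and 43.3% of 10608 after correction, with medians of -0.04 on both scales. The 34 genes at least 2-fold lower in LPS than in Control had medians of -0.07 and -0.03. Over all 11458 classed genes, rho between LPS over Control and mut PDZ+LPS over WT PDZ+LPS was -0.0633 before correction. After correction it was 0.0603 over 10946 genes, so the pattern is one of the induced classes and not of all genes. Among the 58 most induced genes, 2 were at least 2-fold higher before correction, BCL2A1 (1.06) and C11orf96 (1.06), and none after it. Over all genes the shares were 0.602% before and 0.344% after correction.

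**Figure D2:**
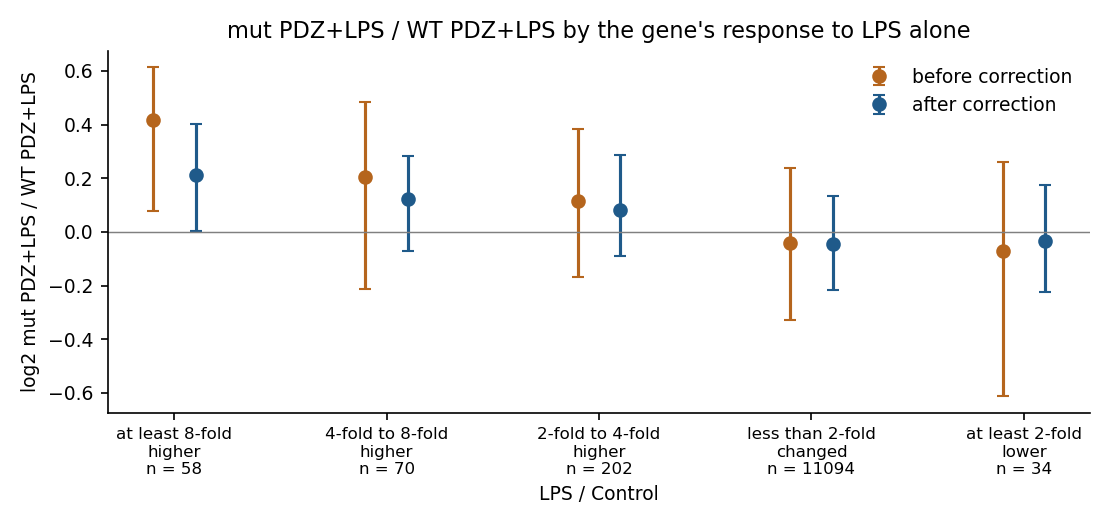
Median log2 ratio of mut PDZ+LPS over WT PDZ+LPS (y axis) in classes of genes by LPS over Control (x axis, n before correction), with bars for the quartiles. Both before (brown) and after correction (blue) the medians step down from 0.42 and 0.21 in the most induced class to -0.04 on both scales in genes changed less than 2-fold.

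After correction the highest of the 58 were VNN1 (0.75), VCAM1 (0.74), TNFAIP8 (0.72) and IL1B (0.69). VCAM1, the adhesion molecule that holds leukocytes on activated cells, had 0.87 normalized counts in Control, 162 with LPS, 107 with WT PDZ+LPS and 173 with mut PDZ+LPS. The level in mut PDZ+LPS was near that in LPS, and WT PDZ+LPS was the lowest of the LPS-treated libraries. MMP3, a secreted matrix protease, was also lowest with WT PDZ+LPS among these, but mut PDZ+LPS lay below LPS, at 257, 416 and 501 normalized counts and 0.87 in Control, with ratios of 0.69 before and 0.55 after correction. ELF3, an epithelial transcription factor, had 6061 in WT PDZ+LPS, 8297 in mut PDZ+LPS and 8492 in LPS, with ratios of 0.45 and 0.60. The lowest after correction were IL7R (-0.48), IRAK2 (-0.46), TCTEX1D4 (-0.36) and LAMB3 (-0.24). IL7R, a cytokine receptor chain, stood at 30.5 in Control, 377 with LPS, 433 with WT PDZ+LPS and 261 with mut PDZ+LPS.

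Chemokine and cytokine ligands lay mostly above 0, and none was 2-fold different. Of 14 chemokine genes, 10 reached 64 normalized counts, and of these CCL5 and CXCL16 differed less than 2-fold between LPS and Control. All 10 had a ratio above 0 before correction and 8 after it, with medians of 0.54 and 0.26, and of 0.53 when the correction used the median transcript length. That form of the correction left more of the length trend, with rho over the longest transcript length at -0.304 against 0.106. CXCL8, the neutrophil attractant interleukin 8, had 1307 normalized counts in Control, 37516 with LPS, 34700 with WT PDZ+LPS and 47644 with mut PDZ+LPS. Its ratio of 0.46 (interval 0.44 to 0.48) became 0.17 after correction. CXCL3, another neutrophil attractant, had 88.8, 5087, 5065 and 8151 in the same order, with ratios of 0.69 and 0.33. CCL20, which attracts dendritic cells and lymphocytes, had 44.4, 14724, 11428 and 18981, with ratios of 0.73 and 0.26. In these genes mut PDZ+LPS was the highest library and WT PDZ+LPS lay below LPS, by little for CXCL3. CCL5 had the highest corrected value of the list at 0.47, and CXCL16, the membrane-bound chemokine, the lowest at -0.11. CCL5 had 46.5 normalized counts with WT PDZ+LPS against 83.4 with mut PDZ+LPS (interval 0.29 to 1.41). It passed through mut PDZ+LPS alone, so its ratio above 0 before correction, counted in the 10, was fixed by the count rule.

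Of 28 cytokine and colony-stimulating factor genes 12 passed, with medians of 0.46 before and 0.14 after correction and 11 and 8 of them above 0. IL6, a driver of the acute-phase response, had 352 normalized counts in Control, 10089 with LPS, 9299 with WT PDZ+LPS and 14629 with mut PDZ+LPS. Its ratio was 0.65 (interval 0.61 to 0.69) and 0.41 after correction. IL1B, the secreted inflammasome product, had 2.61, 556, 340 and 644 in the same order, with ratios of 0.92 (interval 0.72 to 1.12) and 0.69. In IL1B the level in WT PDZ+LPS was the lowest of the LPS-treated libraries. The interval of the IL1B ratio, which covers counting error before correction only, did not include 0. LIF and CSF3 had corrected ratios of 0.48 and 0.15, CSF2 -0.03, and the lowest was TNFSF10, which encodes the death ligand TRAIL, at -0.32. TNFSF10 passed through WT PDZ+LPS alone, at 68.7 normalized counts against 61.1 with mut PDZ+LPS. TNF, the cytokine that gave its family the name, had 0, 46, 31 and 29 raw counts from Control through LPS and WT PDZ+LPS to mut PDZ+LPS. It did not pass the count rule, and a difference between the peptides was not detectable at this depth (interval -0.66 to 0.90).

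**Figure D3:**
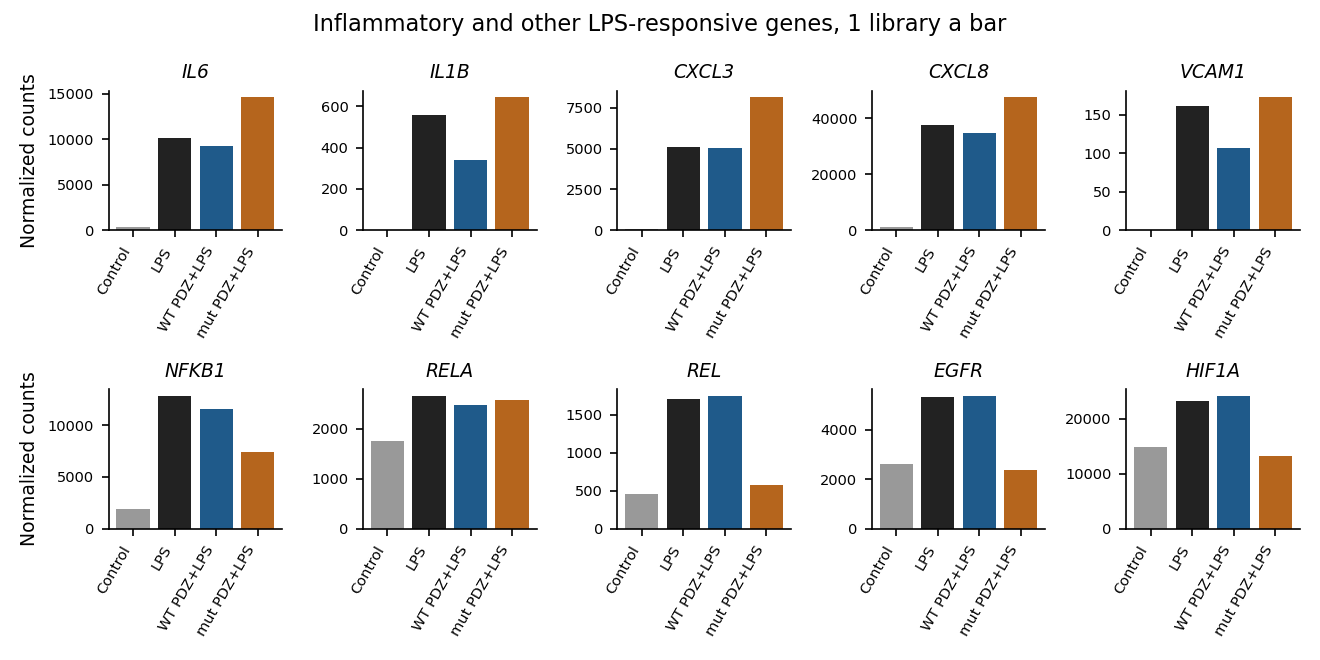
Normalized counts (y axis, linear from 0) of 10 LPS-responsive genes from Control through LPS and WT PDZ+LPS to mut PDZ+LPS, 1 library a bar. IL6, IL1B, CXCL3 and CXCL8 are higher in mut PDZ+LPS than in WT PDZ+LPS, whereas NFKB1, REL, EGFR and HIF1A are lower, with REL at 571 against 1754.

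The genes that carry the signal to NF-kB showed no common direction, but REL stood apart. Of 55 NF-kB subunit, inhibitor and pathway genes 53 passed, with medians of -0.01 before and -0.01 after correction, and 25 and 26 of them above 0. REL, the c-Rel subunit, had 455 normalized counts in Control, 1714 with LPS, 1754 with WT PDZ+LPS and 571 with mut PDZ+LPS. Before correction the LPS and WT PDZ+LPS levels were alike and mut PDZ+LPS lay close to Control, a place that carries the length trend of the mut PDZ+LPS library. The ratio was -1.62 (interval -1.77 to -1.47) and -1.03 after correction, so REL was called lower. The longest REL transcript is 11255 nt, and 50% of its 100-base windows also stood in transcripts of other genes. With total-count or upper-quartile scaling REL passed the 2-fold line before correction only.

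NFKB1, which encodes the p105 precursor of p50, had 1909, 12845, 11534 and 7445 normalized counts from Control through LPS and WT PDZ+LPS to mut PDZ+LPS. It was lower in mut PDZ+LPS by less than 2-fold, with ratios of -0.63 and -0.47. RELA, the p65 subunit, did not differ beyond counting error, at 2472 with WT PDZ+LPS against 2577 with mut PDZ+LPS (ratio 0.06, interval -0.02 to 0.14, and -0.02 after correction). NFKB2 was above 0 at 0.43 and 0.26, and RELB was 0.34 before and -0.11 after correction. Among the inhibitors, NFKBIA, which holds NF-kB in the cytoplasm, had ratios of 0.48 and 0.17, and TNFAIP3, the ubiquitin-editing brake A20, of -0.07 and 0.16. CHUK, the IKK alpha kinase, was the other member past 2-fold before correction, at 1569 normalized counts with WT PDZ+LPS against 736 with mut PDZ+LPS, with ratios of -1.09 and -0.96. TRAF6 had ratios of -0.82 and -0.57, the receptor TLR4 -0.52 and 0.11, TLR2 0.17 and 0.37, and the co-receptor CD14 0.52 and 0.18. LY96, which encodes the MD-2 partner of TLR4, had no count in either peptide library.

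Immediate early genes lay mostly above 0. Of 33 immediate early and AP-1 genes 26 passed, with medians of 0.28 and 0.17 and 20 and 19 above 0. IER5 was the highest after correction (0.73), followed by NR4A2 (0.66), an orphan nuclear receptor, and KLF6 (0.58). JUN, a core subunit of AP-1, had 715 normalized counts in Control, 1962 with LPS, 2051 with WT PDZ+LPS and 2983 with mut PDZ+LPS, with ratios of 0.54 and 0.52. KLF4 was the lowest at -0.22. Of 28 MAP kinase phosphatase and mRNA decay genes 24 passed, with medians of -0.03 on both scales and 10 and 11 above 0. RC3H2, which encodes the mRNA decay protein Roquin-2, was called lower, at 1093, 1111, 1261 and 424 normalized counts from Control through LPS and WT PDZ+LPS to mut PDZ+LPS, with ratios of -1.57 (interval -1.75 to -1.40) and -1.05. Its paralog RC3H1 had ratios of -0.12 and 0.46. The decay factors ZFP36 and ZC3H12A had corrected ratios of 0.27 and 0.15.

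Of 37 leukocyte adhesion, acute-phase and protease genes 30 passed, with medians of 0.23 and 0.12. F3, the tissue factor that starts clotting, had 12621 normalized counts with WT PDZ+LPS against 18929 with mut PDZ+LPS, with ratios of 0.58 and 0.50, and CFB, a complement protease, had ratios of 0.52 and 0.46. SAA1, an acute-phase protein, had 13430, 17615, 19777 and 28001 normalized counts from Control through LPS and WT PDZ+LPS to mut PDZ+LPS, with ratios of 0.50 and -0.02. SAA1 shares 41.7% of its windows with SAA2 and the SAA2-SAA4 transcript, and the summed counts of SAA1 and SAA2 had a ratio of 0.48. SOD2, the mitochondrial superoxide dismutase, had ratios of -0.67 and -0.01. SAA4, another serum amyloid gene, was past 2-fold before correction only (1.10 and 0.62), and the lowest was the complement protease C1S at -0.24. Interferon-stimulated genes (38 of 41 passed) had medians of 0.12 and 0.10, from OASL at 0.95 to OAS2 at -0.53 after correction, and IRF1, a transcription factor that drives many of them, had ratios of 0.46 and 0.51. Inflammasome genes (19 of 28) had medians of 0.01 and -0.01. PANX1, the ATP release channel, was their lowest at 1881 normalized counts with WT PDZ+LPS against 1129 with mut PDZ+LPS (-0.74 and -0.75), and SUGT1 their highest after correction (0.81), with 0.17 before it and a longest transcript of 14131 nt. Cytokine receptors (25 of 35) had medians of -0.11 and -0.02, with LIFR at -0.47 and TNFRSF9 at 0.36 after correction. Of 21 M1 and M2 macrophage markers CD14 and CD68 passed, and CD68 had a corrected ratio of -0.30. NOS2 (0, 1, 2 and 0 raw counts from Control through LPS and WT PDZ+LPS to mut PDZ+LPS) and CXCR2 (0, 1, 1 and 2) were at the limit of detection.

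Among the genes called lower, the largest difference after correction was in POMK, the kinase that phosphorylates O-mannose on alpha-dystroglycan. It had 227 normalized counts in Control, 185 with LPS, 237 with WT PDZ+LPS and 57.6 with mut PDZ+LPS, with ratios of -2.02 (interval -2.52 to -1.59) and -2.23. Its transcript is 1865 nt long, so it differed against the trend with length. TMED8 had 102, 75.3, 115 and 18.8 in the same order, with ratios of -2.55 and -2.08. In both genes Control, LPS and WT PDZ+LPS lay together and mut PDZ+LPS was alone at the bottom, a place that the choice by ratio favours. Of the 15 genes with the lowest corrected ratio, 7 passed the count rule through WT PDZ+LPS alone. POMK, TMED8, TMEM140, ZNF354C and FAM171B are among them.

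MAN1A2, a Golgi mannosidase that trims N-glycans, had 1195 normalized counts in Control, 1065 with LPS, 1311 with WT PDZ+LPS and 354 with mut PDZ+LPS, with ratios of -1.89 (interval -2.08 to -1.71) and -1.41. HACD2, a dehydratase of very long chain fatty acid synthesis, had 745, 674, 780 and 278, with ratios of -1.48 and -1.27. EXOC6B, a subunit of the exocyst that tethers secretory vesicles, had 329, 355, 442 and 139, with ratios of -1.67 and -1.31. The same arrangement held for TMEM140 (-1.46 and -1.69), the zinc finger gene ZNF354C (-1.67 and -1.37), FAM171B (-1.69 and -1.36) and KCTD14 (-1.07 and -1.31). TMEM140 and KCTD14, like POMK, have transcripts under 2000 nt, at 1997 and 1691 nt. DDI2, a protease that cleaves the transcription factor NFE2L1, had 447, 396, 416 and 89.3, with ratios of -2.21 and -1.63, and RSC1A1, all of whose windows stand in DDI2 transcripts, had -1.24 and -1.41. The sum of DDI2 and RSC1A1 had a ratio of -1.70 (interval -1.94 to -1.48). A sum lies between the values of its members by construction, so this adds nothing to them.

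Genes called higher were fewer and most had low counts in the other libraries. Of the 15 with the highest corrected ratio, 10 passed the count rule through mut PDZ+LPS alone. SHC3, a signalling adaptor best known in neurons, had 1788 normalized counts in Control, 1011 with LPS, 832 with WT PDZ+LPS and 1953 with mut PDZ+LPS. The LPS and WT PDZ+LPS levels were below Control, and mut PDZ+LPS was at its level before the length trend was taken into account. The ratio was 1.23 (interval 1.11 to 1.35) and 1.75 after correction, on a transcript of 9768 nt. POU3F3, a neural transcription factor gene with a single coding exon, had 131, 108, 162 and 522, with ratios of 1.68 and 1.502. BMP8B, a secreted ligand of the BMP family, had 211, 249, 291 and 744, with ratios of 1.35 and 1.49, and its sum with the related BMP8A had a ratio of 1.15 (interval 0.98 to 1.34).

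PLCG2, a phospholipase of immune receptor signalling, had 55.7 normalized counts in Control, 36.7 with LPS, 61.6 with WT PDZ+LPS and 162 with mut PDZ+LPS, with ratios of 1.38 and 1.89. PLIN4, a lipid droplet protein (1.18 and 1.30), WNK4, a kinase of salt transport (1.33 and 1.27), SLC9A5, a sodium-proton exchanger (1.29 and 1.26), PRRT2 (1.37 and 1.19), SRRM5 (1.20 and 1.08) and ARHGAP40 (1.16 and 1.02) had the highest level in mut PDZ+LPS too, between 98.7 and 177 normalized counts. SLC9A5 and ARHGAP40 were under 2-fold when the correction used the median length of the transcripts of a gene, at 0.97 and 0.90.

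**Figure D4:**
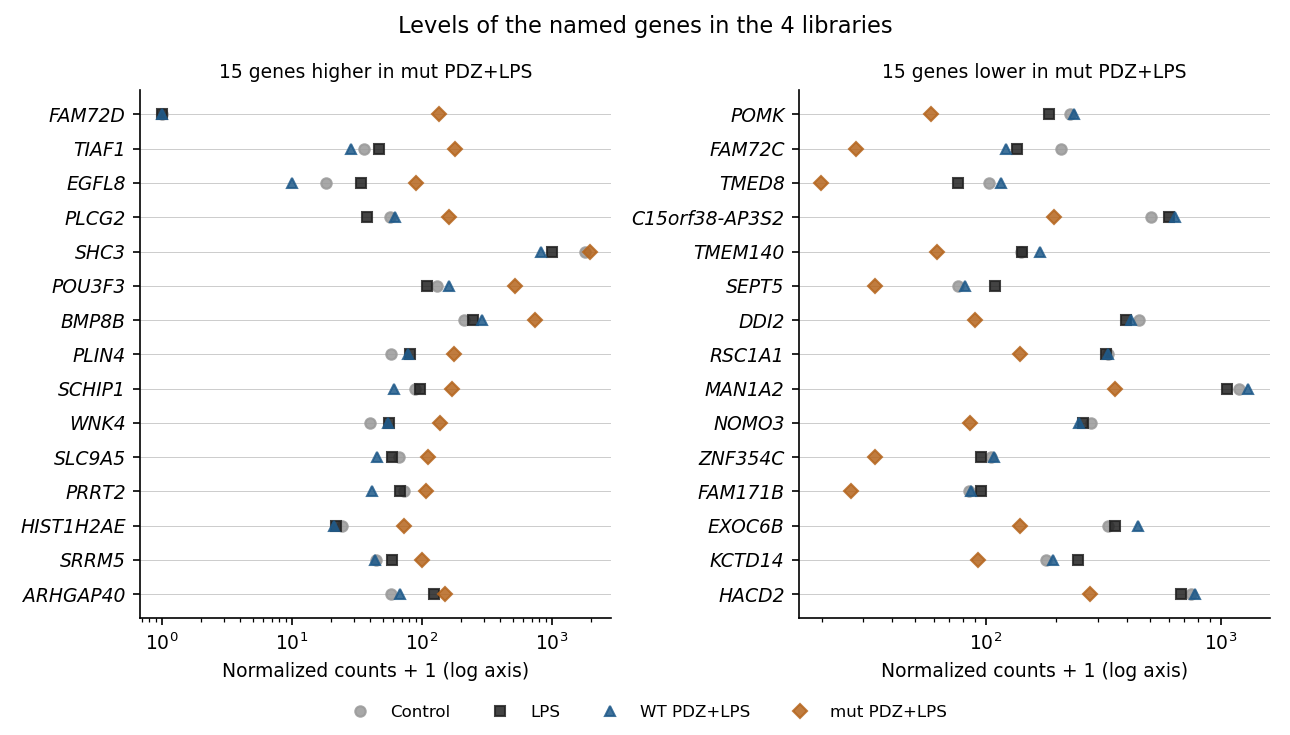
Normalized counts plus 1 (x axis, log) in each of the 4 libraries for the 15 genes with the highest (left) and the 15 with the lowest corrected ratio (right) among genes called on both scales, symbols that join 2 listed symbols left out. The genes were chosen by the ratio of mut PDZ+LPS (brown diamonds) to WT PDZ+LPS (blue triangles), so the distance between these is fixed by the choice. On the left 10 of the 15 passed through mut PDZ+LPS alone, and on the right 7 of the 15 through WT PDZ+LPS alone.

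The calls rest on the ratio of mut PDZ+LPS to WT PDZ+LPS, which favours genes where either library lies at an end, so the places of the libraries are a description. Among the 20 genes called higher mut PDZ+LPS was the highest library in 20 and WT PDZ+LPS the lowest in 10. Among the 38 called lower mut PDZ+LPS was the lowest in 37 and WT PDZ+LPS the highest in 25. The LPS library was closer to WT PDZ+LPS than to mut PDZ+LPS in 16 of the 20 (80%) and 38 of the 38, against 81.6% of all 11061 genes.

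Many of the called genes share sequence with another gene, so that the counting could divide their reads, which was not tested. Of the 58 genes called on both scales, 16 (27.6%) had at least 50% of their transcript windows in another gene, against 336 of 11061 genes (3.04%). The FAM72 family is an example of such shared sequence. FAM72C, one of 4 near-identical genes on chromosome 1, had 239, 144, 120 and 23 raw counts from Control through LPS and WT PDZ+LPS to mut PDZ+LPS, with ratios of -2.12 and -2.20. FAM72D had 0, 0, 0 and 114 raw counts in the same order, and taking the 0 as 3 counts in WT PDZ+LPS it was at least 44.2-fold higher in mut PDZ+LPS. The pair therefore crossed over, FAM72C low where FAM72D was counted. Over 447 coding bases these genes differ at 1 position, which the capital marks in coding bases 215 to 274, in exons 2 and 3. The sequences are shown because reads over this stretch can tell FAM72C from FAM72D by that base alone. They lie within chr1:143964936-143968939 (FAM72C, minus strand) and chr1:145099050-145103050 (FAM72D, plus strand) of GRCh38, and FAM72A and FAM72B have the FAM72D bases here.
FAM72C: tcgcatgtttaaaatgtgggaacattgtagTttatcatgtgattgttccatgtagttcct
FAM72D: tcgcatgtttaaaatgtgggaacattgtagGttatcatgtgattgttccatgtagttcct

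The sum of FAM72C and FAM72D was 120 raw counts with WT PDZ+LPS against 137 with mut PDZ+LPS, a ratio of 0.41 (interval 0.05 to 0.78), and the sum of all 4 FAM72 genes had a ratio of 0.18 (interval -0.03 to 0.40). Whether reads were divided between FAM72C and FAM72D was not tested, so neither is shown to differ as a gene of its own. The sums in this paragraph and the next were chosen after the values of their members were seen. NOMO3 (-1.54 and -1.39) and NOMO2 (-1.34 and -1.19) were lower than NOMO1 (-0.44 and -0.28), and the 3 near-identical genes together had a ratio of -0.72 (interval -0.83 to -0.61).

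TIAF1, which lies within MYO18A, had 34.8 normalized counts in Control, 46.1 with LPS, 27.3 with WT PDZ+LPS and 180 with mut PDZ+LPS, with ratios of 2.68 and 2.92. MYO18A itself had 3877 with WT PDZ+LPS against 3472 with mut PDZ+LPS, so a sum of both would follow MYO18A and cannot show whether reads were divided. EGFL8 (17.4, 32.9, 9.09 and 89.3, ratios of 3.16 and 2.67) had a ratio of 0.25 when summed with PPT2 and PPT2-EGFL8. SCHIP1 (1.48 and 1.29) had 0.47 with IQCJ-SCHIP1, SEPT5 (-1.27 and -1.67) had 0.01 with SEPT5-GP1BB, and C15orf38-AP3S2 (-1.70 and -1.83) had -0.21 with AP3S2. Of 122 symbols that join 2 other listed symbols, 39 passed and 14 (35.9%) were at least 2-fold different before correction, against 2.13% of all genes. COMMD3-BMI1 had 0, 0, 0 and 127 raw counts from Control through LPS and WT PDZ+LPS to mut PDZ+LPS, at least 49.3-fold higher in mut PDZ+LPS, while its sum with COMMD3 and BMI1 had a ratio of -0.17. Where a partner holds most of the counts, as for EGFL8 and COMMD3-BMI1, the sum follows the partner. Leaving out the joined symbols and the genes with at least 50% shared windows left 13 genes called higher and 29 called lower among 10724.

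A further 559 genes that passed had no protein-coding transcript in the reference and so no corrected value. Of these, 19 (3.4%) were at least 2-fold higher and 13 (2.33%) at least 2-fold lower, against 0.602% and 1.52% of all genes, with a median of 0.16. IPO11-LRRC70 had 33, 13, 0 and 227 raw counts from Control through LPS and WT PDZ+LPS to mut PDZ+LPS, and its sum with IPO11 and LRRC70 had a ratio of -1.05. IPO11 alone, the nuclear import receptor importin 11, was among the genes called lower, at 2285, 2180, 2358 and 861 normalized counts (-1.45 and -1.24). DYX1C1-CCPG1 (2.67), SLMO2-ATP5E (-2.96) and ZFP91-CNTF (75 and 0 raw counts in WT PDZ+LPS and mut PDZ+LPS, at least 21.5-fold higher in WT PDZ+LPS) had ratios of -0.20, 0.11 and -0.74 when summed with the genes they join. TGFB2-OT1, a transcript of the TGFB2 locus, had 18, 56, 0 and 161 raw counts. Of the noncoding genes and pseudogenes, RPPH1, the RNA of ribonuclease P, had a ratio of 1.93, FAM133CP of 2.07, ANKRD36BP1 of -2.03 and RALGAPA1P of -1.72. KIAA0754, a symbol with no match in the reference, had a ratio of -1.82. Whether the counting used the strand of the reads is not given in the sources used here, so overlapping genes may share reads.

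Tight junction genes were lower before correction and closer to the rest after it. Of 41 genes 31 passed, with medians of -0.38 and -0.11 and 5 and 8 above 0. When the correction used the median transcript length the median was -0.17. MARVELD2, which encodes tricellulin of three-cell contacts, was called lower, at 149, 167, 202 and 81.1 normalized counts from Control through LPS and WT PDZ+LPS to mut PDZ+LPS (-1.31, interval -1.73 to -0.92, and -1.08). AMOT, a junction scaffold of the Hippo pathway, was called lower at 54.8, 69.6, 70.7 and 23.5 (-1.55 and -1.10), few counts for a ratio. It passed the count rule through WT PDZ+LPS alone. JAM3, a junctional adhesion molecule, was the highest of the list at 0.72 and 0.88. OCLN, encoding occludin, had ratios of -0.07 and 0.32, and CLDN1, with 913 normalized counts in Control and 7058 in LPS, had 7101 with WT PDZ+LPS against 5144 with mut PDZ+LPS (-0.47 and -0.35). Other PDZ-domain scaffold genes (44 of 57 passed) had medians of -0.07 and -0.01, and AHNAK and PTPN13 were past 2-fold before correction only, at -1.25 and -1.01. DFNB31, which encodes whirlin, was called higher at 28.3 normalized counts with WT PDZ+LPS against 65.8 with mut PDZ+LPS (1.19 and 1.01). It passed the count rule through mut PDZ+LPS alone.

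Genes of sterol and fatty acid synthesis were mostly lower by small amounts on both scales. All 37 passed, 8 had a ratio above 0 before correction and 4 after it, and the medians were -0.26 and -0.23. The corrected ratios lay between -0.43 and 0.10. EBP, a sterol isomerase, was the highest, at 4161 normalized counts in Control, 3697 with LPS, 3446 with WT PDZ+LPS and 4466 with mut PDZ+LPS (0.37 and 0.10). No gene of the list was 2-fold different, and over all genes 4908 of 11061 were above 0 after correction.

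**Figure D5:**
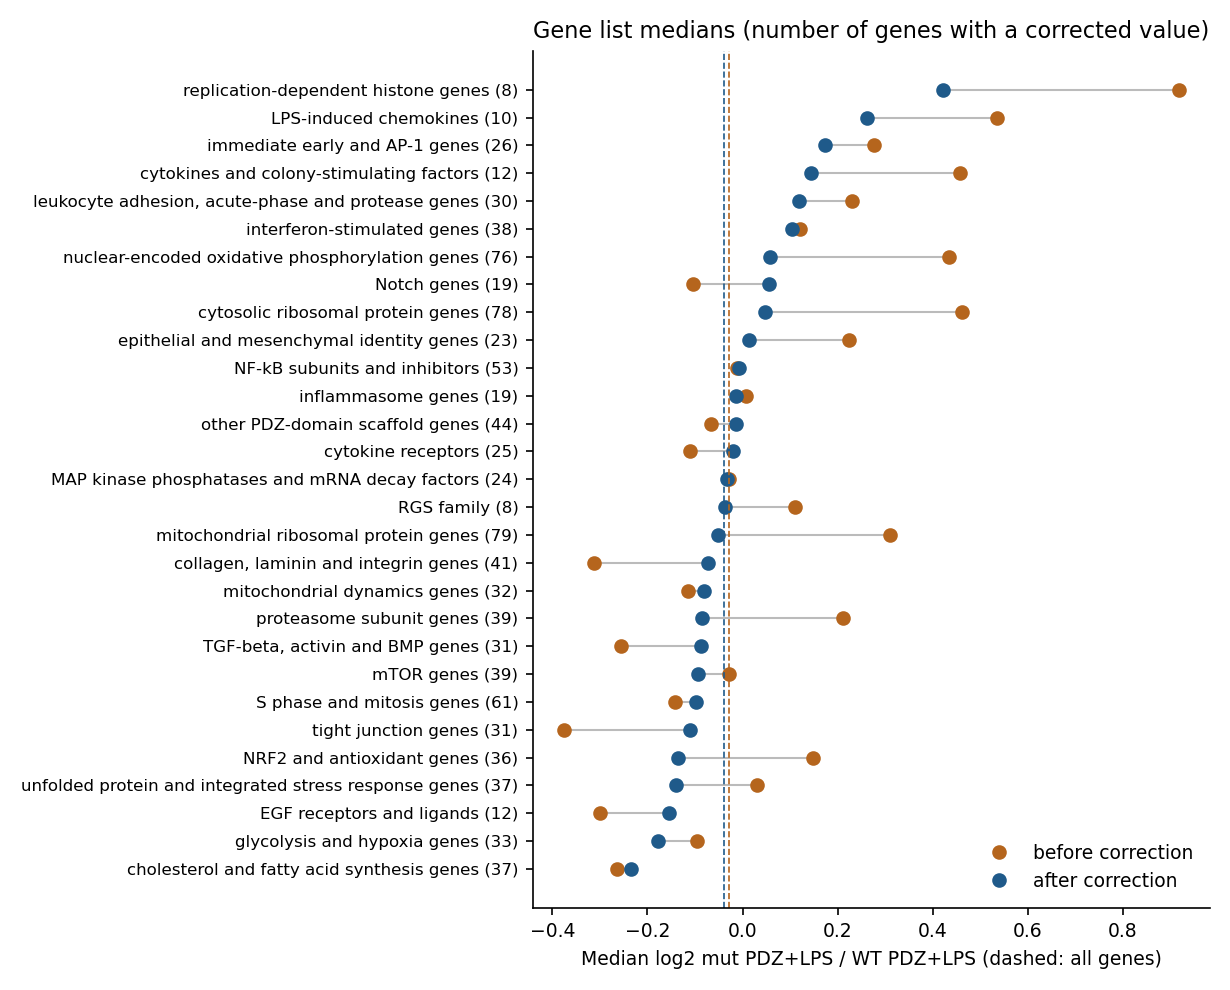
Median log2 ratio of mut PDZ+LPS over WT PDZ+LPS (x axis) of the gene lists with at least 5 corrected genes, before (brown) and after correction (blue), with dashed lines for all genes. Chemokine (0.54 and 0.26) and immediate early genes (0.28 and 0.17) lie to the right on both scales and cholesterol and fatty acid genes (-0.26 and -0.23) to the left, while ribosomal protein genes move from 0.46 to 0.05. The histone median is set by the count rule, since 6 of its 8 genes passed through mut PDZ+LPS alone.

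Lists of ribosomal, respiratory chain and proteasome genes, made of short transcripts, were high before correction, and how far the correction lowered them depended on the transcript chosen. All 78 cytosolic ribosomal protein genes that passed were above 0 before correction with a median of 0.46, and 46 were above 0 after it with a median of 0.05. RPL37 and RPL14 were past 2-fold after correction only. RPL37 was 1.07 after correction and 0.60 before it, and the correction over the median transcript length gave 0.59, so its value rests on the transcript chosen. Oxidative phosphorylation genes went from 0.43 to 0.06, mitochondrial ribosomal protein genes from 0.31 to -0.05 and proteasome genes from 0.21 to -0.09. With the correction over the median transcript length, chosen after seeing the data, the medians were 0.34 for cytosolic ribosomal protein genes, 0.29 for oxidative phosphorylation, 0.16 for mitochondrial ribosomal protein and 0.09 for proteasome genes. This form left rho with the longest transcript length at -0.304, so part of the length trend remained in these medians. Of 73 replication-dependent histone genes 8 passed, 6 of them through their level in mut PDZ+LPS alone, so their number past 2-fold and their median are set by the count rule and say nothing of the list. HIST1H2AE, an H2A gene, was called higher at 23.5, 20.7, 20.2 and 71.7 normalized counts from Control through LPS and WT PDZ+LPS to mut PDZ+LPS (1.78 and 1.09). Histone transcripts mostly lack a poly(A) tail, and poly(A) selection preceded library preparation here.

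Lists with long transcripts were low before correction. Collagen, laminin and integrin genes had medians of -0.31 before and -0.07 after correction, with ITGA2 at -0.69 and COL27A1 at 0.88 after it. ITGA2 was past 2-fold before correction only, at -1.17. EGF receptors and ligands had medians of -0.30 and -0.16. EGFR had 2602, 5336, 5386 and 2363 normalized counts from Control through LPS and WT PDZ+LPS to mut PDZ+LPS. The ratios were -1.19 (interval -1.26 to -1.11) and -0.64. Before correction mut PDZ+LPS was thus below Control where LPS and WT PDZ+LPS were above it. The EGFR transcript is 9821 nt long, and rho with length for mut PDZ+LPS over Control was -0.475. The place of EGFR against Control thus cannot be told apart from the length trend. TGF-beta, activin and BMP genes had medians of -0.26 and -0.09, with TGFBR2, the type II receptor of TGF-beta, the lowest at -0.41 after correction. SMAD2 was the highest at 0.55, but it was -0.32 before correction and -0.32 with the median transcript length, as its longest transcript is 34526 nt. Notch genes had -0.10 and 0.06, with NOTCH3 at -0.71 and DLL1 at 0.58 after correction. With the median transcript length the Notch median was -0.13, that of the collagen, laminin and integrin genes -0.17 and that of the TGF-beta genes -0.17. For the EGF receptors and ligands it was -0.22.

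Glycolysis and hypoxia genes had medians of -0.10 and -0.18. HIF1A, the oxygen-regulated transcription factor, had 14893, 23197, 24149 and 13183 normalized counts from Control through LPS and WT PDZ+LPS to mut PDZ+LPS (-0.87, interval -0.91 to -0.84, and -0.73), and ADM, a target of HIF1A, had 102, 1291, 1078 and 1940 (0.85 and 0.50). In counts without the correction, HIF1A was thus the lowest and ADM the highest in mut PDZ+LPS. Unfolded protein and integrated stress response genes had medians of 0.03 and -0.14, with ERN1, the IRE1 sensor, at -1.15 before and -0.71 after correction. NRF2 and antioxidant genes had 0.15 and -0.14, and S phase and mitosis genes -0.14 and -0.10, with CCNE1, the cyclin of S phase entry, the lowest at -0.76 after correction. The mTOR list had medians of -0.03 and -0.09, and MTOR had 3893 normalized counts with WT PDZ+LPS against 2504 with mut PDZ+LPS (-0.64 and -0.18). Mitochondrial dynamics genes had -0.11 and -0.08, and DNM1L, the fission GTPase, -0.31 and -0.08. The RGS family had 0.11 and -0.04, with RGS12 at -0.25 and -0.08, and epithelial and mesenchymal identity genes had 0.22 and 0.01, with PKP1, a desmosome protein, at -1.02 and -0.83. None of the 13 mitochondrially encoded genes is listed in the tables.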

How the data were processed

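The authors trimmed paired-end reads from poly(A)-selected libraries of a directional kit, mapped them with TopHat (hg19, per the submitters' processing notes) and deposited the reads of each gene symbol as raw counts, the unit used here. The paper names FPKM and geometric normalization, which the deposited whole numbers do not carry. The counting tool, annotation and strand setting are not given in the sources used here. Totals were 24823347 counts for Control, 25155647 for LPS, 23446600 for WT PDZ+LPS and 19682929 for mut PDZ+LPS, and no other sample columns were present. Groups came from the sample titles and treatments.

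Median-of-ratios size factors (DESeq2 1.42.0, R 4.3.3) were computed over the 4 libraries, and genes with at least 64 normalized counts in mut PDZ+LPS or WT PDZ+LPS were kept (the nearest at 64.6 and 63.6). A gene under 64 in 1 of these libraries passed through the other alone. This fixes the direction of its ratio before correction, as for NOTCH3, CCNE1 and PKP1. The log2 ratio with 1 normalized count added was corrected by lowess (span 0.3, statsmodels 0.14.6) over the log2 length and then the GC content of each gene's longest protein-coding GENCODE 29 transcript (GRCh38), with the median kept. Of the symbols, 21848 matched by name, 710 through another name in RefSeq and 1866 not at all. With 1 library a side there was no test, so calls are folds of at least 2. The 95% counting intervals are Clopper-Pearson intervals of the ratio given the size factors, with no count added. They cover counting error only, as the reads carry no molecular identifiers and need not be separate molecules. A count of 0 was taken as 3 for a lower bound. Shared sequence is the share of 100-base windows, every 50 bases of a transcript, that also stand in another gene. The genes named were the 15 highest and 15 lowest after correction among those called on both scales and without a symbol that joins 2 other listed symbols (C15orf38 is not listed, so C15orf38-AP3S2 stayed), members of the 32 lists called on both scales (otherwise the highest and lowest), genes the study names, and the 5 highest and 5 lowest without a protein-coding transcript. Other genes, such as IPO11, CHUK and CCL20, were added after their values were seen. Some genes the rule names are not reported here. The comparison, members and lists were chosen with earlier results of these data known. Alternatives were scaling by TMM (edgeR 4.0.16), by total counts and by the upper quartile, 5 counts added, other count minimums and folds, and other forms of the correction. The steps were tested on simulated data.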

Additional observations from a re-analysis of the deposited data

Results flagged for a closer look

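Some genes moved at least 2-fold in opposite directions from the LPS library in the WT PDZ+LPS and the mut PDZ+LPS library. EGFL8, TGFB2-OT1, IPO11-LRRC70, ZFP91-CNTF and BIVM-ERCC5 were among them, a difference that was not tested. EGFL8 had a log2 ratio of mut PDZ+LPS over WT PDZ+LPS of 3.16 (interval 2.30 to 4.48), TGFB2-OT1 of 7.57, IPO11-LRRC70 of 8.06 and ZFP91-CNTF of -6.26. In LPS these 4 genes had few normalized counts, at 32.9, 52.7, 12.2 and 15.1 in this order. EGFL8, TGFB2-OT1 and IPO11-LRRC70 passed the count rule through mut PDZ+LPS alone. ZFP91-CNTF and BIVM-ERCC5 passed it through WT PDZ+LPS alone. The direction of these ratios was thus fixed by the count rule. TGFB2-OT1 and IPO11-LRRC70 were at 0 in WT PDZ+LPS and ZFP91-CNTF in mut PDZ+LPS, so their fitted values depend on the count added, and the bounds are at least 62.4-fold higher in mut PDZ+LPS for TGFB2-OT1, at least 88-fold for IPO11-LRRC70 and at least 21.5-fold higher in WT PDZ+LPS for ZFP91-CNTF. Summed with the genes they overlap or join, the same comparison gave 0.25 for EGFL8, -0.27 for TGFB2-OT1 with TGFB2, -1.05 for IPO11-LRRC70 and -0.74 for ZFP91-CNTF. In these sums the other genes hold most of the counts.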

How the results depend on the processing

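The numbers of genes at least 2-fold higher and lower were 70 and 177 before correction and 38 and 45 after it. They followed the count minimum and the fold. At least 16 normalized counts gave 284 and 286 before and 144 and 111 after correction, no minimum 1648 and 1409, and 825 and 719, and 4 times the minimum 17 higher before, and 13 and 23 after. A fold of 1.5 gave 639 and 1184, and 317 and 298, and a fold of 3 gave 14 and 22, and 7 and 8. Without joined symbols and genes with at least 50% shared windows, an alternative chosen after seeing the data, 40 were higher before correction. A correction over the median transcript length, also chosen after seeing the data, gave 89 lower genes. Upper-quartile scaling moved the balance before correction to 96 higher and 121 lower. The other 29 counts stayed within 1.5 times. Of the values of single genes, lists and trends under all alternatives 774 stayed and 156 moved, and no ratio of a called gene reversed.

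Of the 58 genes called on both scales, 53 to 58 stayed called under 9 alternatives of scaling, count added and correction, and 28 to 30 of the 30 named. REL was lost with total counts and upper quartile, RC3H2 with upper quartile, AMOT, DFNB31 and HIST1H2AE with 5 counts added, ARHGAP40 with 3 alternatives, SLC9A5 with the median length, DFNB31 with GC content first, ASXL2 with 2 alternatives and LMBRD2 with 5. The median corrected ratio of the 58 genes at least 8-fold higher in LPS than in Control was 0.21 to 0.28 in these alternatives, with 43 to 50 above 0. That of the cholesterol and fatty acid genes was -0.26 to -0.17. With the median transcript length the ribosomal protein median was 0.34 and the NRF2 median 0.01, and rho with the longest transcript length was -0.304. The cause of these changes was not tested. No paired analysis was possible because each condition has 1 library.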
